A study of Chlorella sp. HS2 with 12 samples.

Results

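Chlorella sp. HS2 is a unicellular green alga that was grown in freshwater medium and in marine medium. RNA-seq libraries were compared for 1 property of each gene, whether its response to salt differed between the exponential and the stationary growth phase. The quantity tested was the interaction, that is the marine-minus-freshwater log2 difference in stationary phase minus the marine-minus-freshwater log2 difference in exponential phase. A positive interaction means that the salt effect was more positive in stationary phase, and a negative one that it was more negative there. Genes entered the test when they had 15 or more counts summed over the 6 freshwater libraries and 15 or more over the 6 marine libraries, which 23351 of the 57640 assembled genes did. Of the genes left out, 16677 missed this minimum only in marine libraries, 12272 only in freshwater libraries and 5340 in both, so genes seen in 1 medium alone were not tested.

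Cultures were autotrophic and grew in stirred photobioreactors with 5% CO2, all from the same strain. The 4 groups, each with 3 libraries, were freshwater medium at day 4 (freshwater exponential), freshwater medium at day 6 (freshwater stationary), marine medium with 3% sea salt at day 4 (marine exponential) and the same marine medium at day 6 (marine stationary). A day and a growth phase are therefore the same contrast here, and the marine medium differs from the freshwater medium as a whole, not by sodium chloride alone.

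In green algae, light-harvesting chlorophyll a-b binding proteins form the antenna that passes light energy to photosystems I and II. Electron transport then supplies ATP and reducing power to the Calvin cycle, in which phosphoribulokinase and Rubisco fix CO2. Carbon that is not used for growth is stored as starch and, under many stresses, as triacylglycerol. Salt water adds an osmotic and an ionic load, which algae meet with ion pumps and exchangers and with compatible solutes such as proline.

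The libraries held 9378066 to 11280635 counts, of which 91.1% to 98% lay in the genes tested. The library codes of the 3 marine exponential samples share a stem, as do those of marine stationary replicates 1 and 2, and the labels do not say whether these came from separate cultures, so p-values may measure technical spread in part. The median SD of a gene on the log2 CPM scale (counts scaled to a common library size) was 0.0877 for marine exponential libraries against 0.255 for freshwater exponential, 0.205 for freshwater stationary and 0.285 for marine stationary libraries. Marine stationary replicate 3 stood apart from the other marine stationary libraries, with a median absolute log2 difference of 0.399 to 0.404 to each of them against 0.0553 between them. Genes with a best hit in Viridiplantae, the green plants and algae, held 46.0% to 50.4% of counts in freshwater exponential libraries, 37.4% to 38.5% in freshwater stationary, 42.9% to 43.5% for marine exponential and 38.1% to 41.4% for marine stationary libraries. Marker genes of the green alga (43, with 2 at 0 in every library) summed to 126631 to 144462 CPM in freshwater exponential and to 3691 to 7032 CPM over the other 9 libraries, and this list overlaps the antenna and photosystem genes described here. Among markers of other cells, 28 genes with bacterial marker names summed to 151 to 219.9 CPM over all libraries, 10 with animal marker names to 0.134 to 9.71 CPM with 4 of them at 0 everywhere, and 2 with fungal marker names to 99.1 to 512 CPM. Of the 7 tested genes in these 3 marker lists, 1, a bacterial one, passed the interaction test. Genes with a bacterial best hit held 3.80% to 4.28% of counts in freshwater exponential, 3.58% to 3.97% for freshwater stationary, 3.14% to 3.21% for marine exponential and 2.69% to 2.75% for marine stationary libraries. Those with a fungal best hit held 1.96% to 2.26%, 3.20% to 3.61%, 2.75% to 2.88% and 3.46% to 5.22% in the same order, and those with an animal best hit 5.74% to 7.13% over all libraries. The part of these shares in the results was not tested. In such bulk libraries, fewer cells of a kind and less RNA per cell cannot be told apart.

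The salt effect differed between the phases for 2428 of 23351 genes, or 10.4%, at a false discovery rate (FDR) under 0.05. The interaction was positive for 882 of them (3.78% of genes tested) and negative for 1546 (6.62%). The median interaction of all tested genes was -0.07 on the log2 scale. The share of negative calls, 63.7%, moved with the scaling of the libraries, from 54.7% with DESeq2 size factors to 73.1% with library totals and 80.7% with the scaling implied by the authors' deposited table, which lowers every interaction by 0.351. Leaving out marine stationary replicate 3 raised the positive calls to 1327, and leaving out marine exponential replicate 1 or 2 or marine stationary replicate 1 or 2 lowered the negative calls to 1003, 1009, 1009 and 1005. With the libraries of a shared code stem summed, 9 samples were left, 1 of them marine exponential and 2 marine stationary. That fit assumes that the lone marine exponential sample varies like the other groups, and its FDR values rest on this assumption. Of the 64 named genes with a call, 40 still passed in that fit and 24 did not, and the FDR of each of the 24 is given with the gene as the FDR with summed stems.

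Salt in exponential phase raised 2372 of the tested genes (10.2%) and lowered 1977 (8.47%). In stationary phase it raised 1710 (7.32%) and lowered 2224 (9.52%). The step from exponential to stationary phase raised 2012 genes (8.62%) and lowered 1426 (6.11%) in freshwater medium, but raised 100 (0.428%) and lowered 391 (1.67%) in marine medium. These contrasts share libraries with the interaction and with each other. Among the 2428 called genes, 581 were raised by salt in exponential phase and not called in stationary phase, and 473 were not called in exponential phase and lowered in stationary phase. Another 385 were lowered in exponential phase alone and 216 raised in stationary phase alone. The salt effect turned sign, with a call in both phases, in 242 genes, of which 154 were raised and then lowered and 88 were lowered and then raised. In all, 1655 of the called genes had a salt effect that passed the test in 1 phase only.

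**Figure D1:**
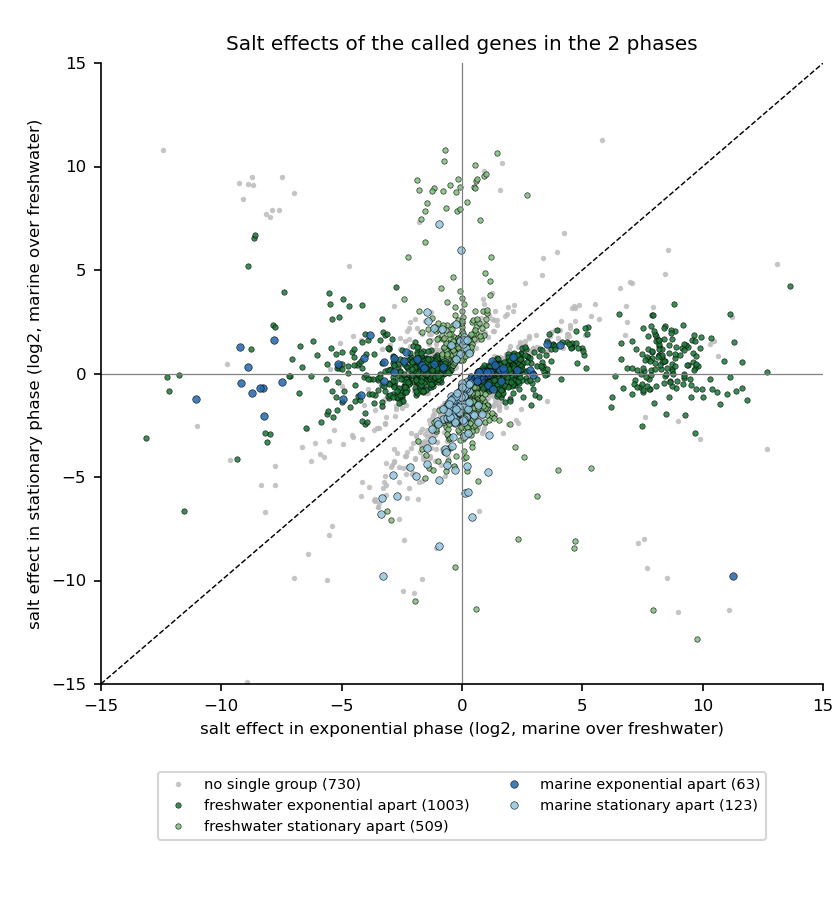
Salt effect in exponential phase (x axis) against salt effect in stationary phase (y axis), both as log2 differences marine minus freshwater, for genes whose salt effect differed between phases, with the dashed diagonal marking equal effects and colours the group that stood apart. Points near a zero line have little effect in 1 of the phases, and the cloud at the right holds mainly genes with freshwater exponential low, of which 143 had 0 counts there.

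Each called gene was then described by the single group that stood apart, meaning that its mean log2 CPM was farther from the nearest other group than the other 3 groups were from each other. Such a group existed for 1698 of the 2428 called genes, or 69.9%. Freshwater exponential was that group for 1003 genes (41.3%), freshwater stationary for 509 (21.0%), marine stationary for 123 (5.07%) and marine exponential for 63 (2.59%). Freshwater exponential stood apart on the high side in 448 genes and on the low side in 555, and freshwater stationary on the high side in 328 and on the low side in 181. Marine exponential stood apart high in 37 and low in 26 genes, and marine stationary high in 18 and low in 105. Since a call needs a difference between 4 means measured with unequal spread, these counts describe the called genes and were not tested against each other. Without marine stationary replicate 3, marine exponential stood apart high in 63 and low in 32 genes, marine stationary high in 48 and low in 285, and freshwater stationary low in 305. With code stems summed, the counts high and low were 90 and 110 for freshwater exponential, 70 and 15 for freshwater stationary, 7 and 3 for marine exponential, and 2 and 26 for marine stationary. Over all 23351 genes, called or not, freshwater exponential stood high in 6.71% and low in 13.2%, against 18.5% and 22.9% of the called genes. Marine stationary stood high in 9.28% of all genes and in 0.741% of the called ones.

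**Figure D2:**
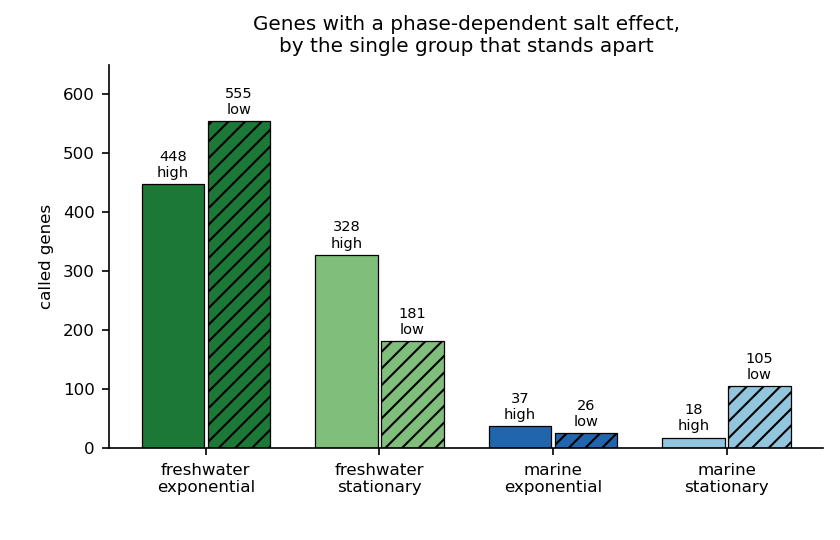
Number of called genes (y axis) in which each of the 4 groups (x axis) stood apart from the other 3, drawn separately for groups standing high and low. The freshwater exponential bars, 448 high and 555 low, are the tallest, and the marine exponential bars, 37 high and 26 low, are short.

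Part of the low side of freshwater exponential consisted of genes that were not detected there. Of the 555 genes, 143 (25.8%) had 0 counts in all 3 freshwater exponential libraries. Only 4 of these 143 carried a product name, and 120 were the only tested gene of their assembly component, the set of assembled sequences that Trinity linked to each other. The median level in the other groups was 4.84 CPM, and the lowest of the other groups was, in the median gene, at least 4.50 log2 units above a floor of 3 counts over the group. The same held for 28 of the 181 genes with freshwater stationary low, 10 of 26 with marine exponential low and 3 of 105 with marine stationary low. Without these undetected genes, the median interaction of the freshwater exponential low class was -1.58.

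Antenna genes had the largest median interaction of the 33 gene lists that were read. All list members carry a product name, and 1192 of the 4819 tested genes with such a name were called in either direction. Of 24 tested antenna genes, 19 had a positive and 2 a negative interaction, against 3.78% and 6.62% of all genes, and the median interaction was 5.80. Salt lowered 18 of them and raised 1 in exponential phase, while in stationary phase it raised 12 and lowered 3, so that 11 turned sign. Summed over the antenna list, the level was 107502 to 122412 CPM in the 3 freshwater exponential libraries, 3139 to 5544 for freshwater stationary, 2442 to 2820 for marine exponential and 3274 to 4999 for marine stationary libraries. The mean antenna sum was thus 116292 CPM in freshwater exponential cultures and 2643 to 4699 CPM in the other 3 groups. These CPM are scaled between libraries and are not shares of all counts.

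Chlorophyll a-b binding protein 3 (TRINITY_DN2252_c0_g2) was the most abundant single antenna gene. It read 65990.5, 56609.8 and 66562 CPM in freshwater exponential libraries, 130.1, 60.8 and 172 for freshwater stationary, 1433, 1271 and 1446 for marine exponential, and 1442, 1451 and 2448 for marine stationary libraries. Freshwater exponential was far above the rest, and freshwater stationary lay below both marine groups without overlap. The salt effect was -5.51 in exponential and 3.88 in stationary phase, an interaction of 9.39 (SE 0.67, FDR 2.34e-05). Chlorophyll a-b binding protein 215 (TRINITY_DN10362_c0_g1) had the same shape, with 16960.3 to 20756 CPM in freshwater exponential, 18.2 to 48.9 for freshwater stationary, 60.6 to 97.1 for marine exponential and 89.0 to 266 for marine stationary libraries. Its interaction was 10.20 (SE 0.80, FDR 3.89e-05). An antenna gene of LHCII type I, the major trimeric antenna of photosystem II (TRINITY_DN546_c0_g2), gave 6468, 5838 and 6357 CPM in freshwater exponential against 3.52, 18.3 and 17.4 for freshwater stationary, 24.8, 27.3 and 59.2 for marine exponential, and 172, 138 and 295 for marine stationary libraries. Here the marine stationary libraries lay above the marine exponential ones without overlap, while freshwater went the other way, and the interaction was 11.33 (SE 0.91, FDR 4.55e-05).

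The minor antenna protein CP29 (TRINITY_DN297_c0_g2), which links the trimers to the photosystem II core, changed over a narrower range. Its levels were 2391 to 2955 CPM in freshwater exponential, 51.1 to 71.3 for freshwater stationary, 251 to 271 for marine exponential and 374 to 412 for marine stationary libraries, with no overlap between any groups and an interaction of 5.93 (SE 0.22, FDR 4.23e-07). The photosystem I antenna gene TRINITY_DN1819_c1_g2 stood at 546 to 569 CPM in freshwater exponential and at 13.2 to 22.2 CPM in all other libraries, with an interaction of 5.43 (SE 0.20, FDR 4.23e-07). A type 2 antenna gene (TRINITY_DN2252_c0_g4) differed among all groups rather than in 1 alone: 1023 to 1460.2 CPM in freshwater exponential, 2.47 to 14.4 for freshwater stationary, 45.9 to 55.1 for marine exponential and 195 to 339.6 for marine stationary libraries.

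**Figure D3:**
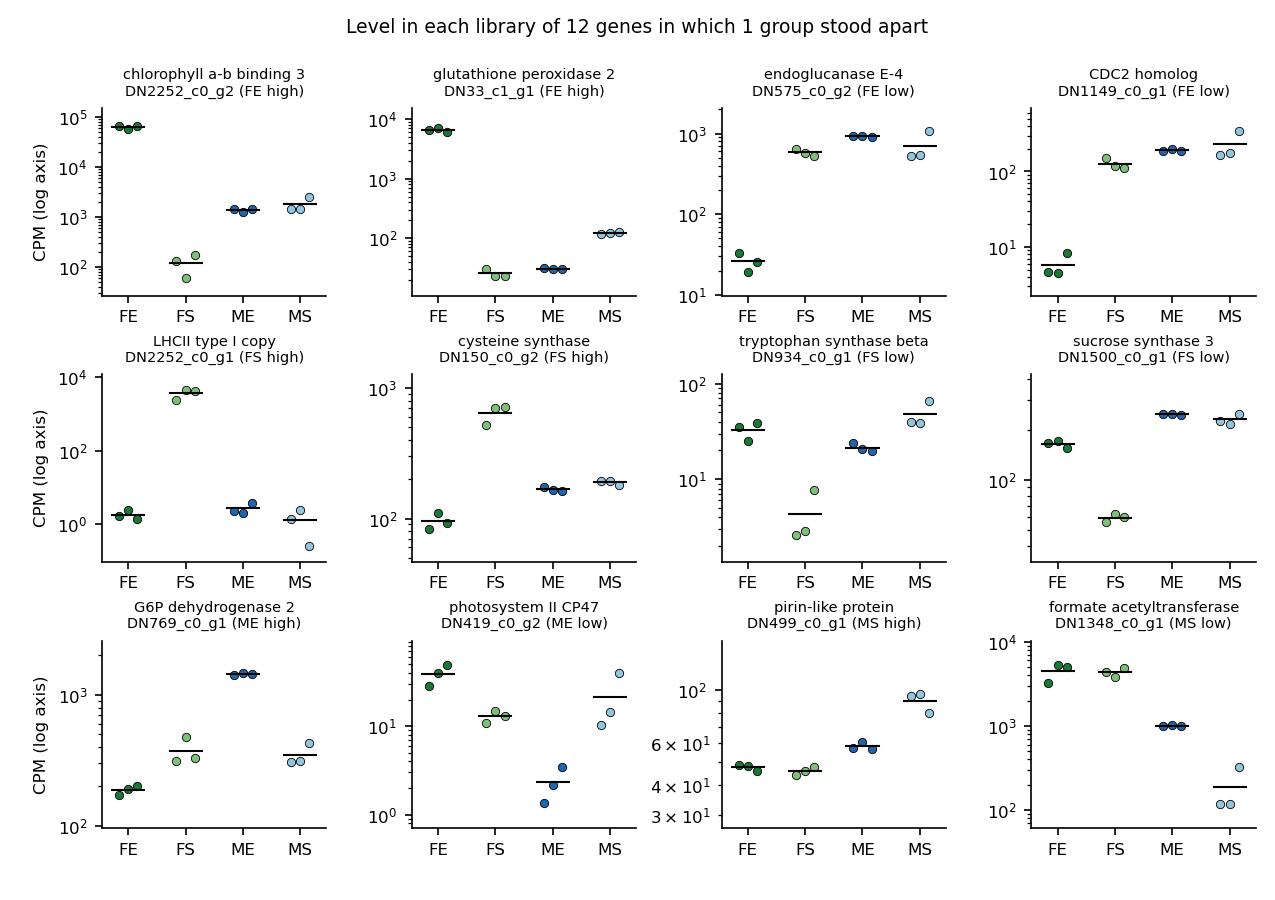
Level in CPM (y axis, log scale) of selected genes in each of the 12 libraries, grouped along the x axis by freshwater and marine medium and by phase, 1 point per library with a bar at the group mean (FE and FS, freshwater exponential and stationary; ME and MS, marine exponential and stationary). Chlorophyll a-b binding protein 3 is highest in the 3 freshwater exponential libraries at 56609.8 to 66562 CPM, and the other panels show genes in which each group in turn stood high or low.

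A pair of antenna copies behaved in the opposite way and decided the sum in freshwater stationary libraries. TRINITY_DN2252_c0_g1, of LHCII type I, read 1.39 to 2.38 CPM in freshwater exponential, 2328, 4555 and 4124 for freshwater stationary, 2.09 to 3.72 for marine exponential and 0.251 to 2.41 for marine stationary libraries (interaction -11.94, SE 0.85, FDR 2.14e-05). TRINITY_DN546_c0_g9 read 109, 304 and 234 CPM in freshwater stationary and 0.126 to 1.34 CPM in the other 9 libraries (interaction -10.31, SE 0.75, FDR 2.52e-05). Both belong to the same assembly components as antenna genes that were high in freshwater exponential. Counting can split reads among near-identical copies, and whether these copies are near-identical or shared reads was not tested. When all genes of a component were summed before the test, the interaction of component DN2252_c0 was 4.52 and that of DN546_c0 was 3.36, both positive and smaller than the 9.39, 9.86 and 11.33 of the single genes TRINITY_DN2252_c0_g2, TRINITY_DN2252_c0_g4 and TRINITY_DN546_c0_g2. Component DN2252_c0, with 4 genes, summed to 64354 ± 5499 CPM (SD, n = 3) in freshwater exponential, 3798 ± 1167 for freshwater stationary, 1441 ± 96.3 for marine exponential and 2035 ± 656 for marine stationary libraries. Without the pair, the antenna sum in freshwater stationary libraries was 686 to 1057 CPM instead of 3139 to 5544, and in marine stationary libraries 3271 to 4998 CPM. The order of freshwater stationary and marine stationary antenna levels therefore depends on those copies, whereas freshwater exponential stayed far above both.

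Photosystem and electron transport genes were called in the same direction. Of 48 tested, 28 had a positive interaction and none a negative one at this FDR, with a median of 3.15. The called share was 58.3%, against 10.4% of all tested genes and 30.1% of those with a best hit in Viridiplantae. Of the called genes, 16 were high in freshwater exponential alone and 8 turned sign. Their sum was 19734 to 21809 CPM in freshwater exponential, 2260 to 2807 for freshwater stationary, 2502 to 2639 for marine exponential and 2780 to 3004 for marine stationary libraries. Ferredoxin, the soluble electron acceptor of photosystem I, had group means of 1312, 6.83, 20.2 and 12.9 CPM in freshwater exponential, freshwater stationary, marine exponential and marine stationary (TRINITY_DN3638_c0_g2, interaction 6.93). The photosystem I subunit PsaK had means of 2992, 91.8, 60.3 and 76.1 CPM in the same order (TRINITY_DN6430_c0_g1, 5.36). Subunit PSBR of photosystem II moved less, with means of 3660, 414, 476 and 478 CPM (TRINITY_DN2727_c0_g1, 3.15).

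Of 21 Calvin cycle genes, 8 had a positive and 1 a negative interaction, and the median was 1.19. The called share was 42.9%, against 10.4% of all tested genes and 30.1% of those with a best hit in Viridiplantae. The Rubisco small chain (TRINITY_DN1599_c0_g1) stood at 10621, 8897 and 9330.2 CPM in freshwater exponential, 696, 798 and 886 for freshwater stationary, 788, 779 and 737 for marine exponential, and 1571, 1643 and 1296 for marine stationary libraries. Marine stationary was above freshwater stationary without overlap, a salt effect of 0.92 there against -3.65 in exponential phase (interaction 4.57, SE 0.26, FDR 4.61e-06). Phosphoribulokinase, which regenerates the CO2 acceptor (TRINITY_DN55859_c0_g1), was at 1169 to 1615 CPM in freshwater exponential and between 46.7 and 133 CPM in the other 9 libraries, whose groups overlap (interaction 4.81, SE 0.50, FDR 0.000217). Chloroplast fructose-bisphosphate aldolase 1 (TRINITY_DN2275_c0_g1) went from 612 to 929 CPM in freshwater exponential to 66.2 to 130.1 CPM elsewhere (3.34, SE 0.29, FDR 8.23e-05). Ribulose-phosphate 3-epimerase was low in freshwater stationary instead, with means of 208, 41.4, 102 and 132 CPM (TRINITY_DN5020_c0_g1, 2.70).

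Chlorophyll and heme synthesis had 7 positive and 1 negative call among 26 genes, with a median of 0.84. That share, 30.8%, was near the 30.1% called among all genes with a best hit in Viridiplantae. Glutamyl-tRNA reductase, the first committed enzyme of tetrapyrrole synthesis (TRINITY_DN296_c0_g2), was at 418 to 478 CPM in freshwater exponential and at 50.6 to 89.7 CPM in the other libraries (2.71, SE 0.20, FDR 3.02e-05), and its value was 1.35 when its component was summed. Genes for ribosomal proteins of plastid, mitochondrial or bacterial type formed a larger block, with 25 of 58 positive, 1 negative and a median of 1.4. Of the called ones, 22 were high in freshwater exponential alone. A bacterial best hit was held by 30 of the 58, and whether those genes belong to the alga or to other cells was not tested. The gene for 30S protein S13 (TRINITY_DN962_c0_g1) read 1053, 796 and 795 CPM in freshwater exponential, 198 to 245 for freshwater stationary, 166 to 208 for marine exponential and 162 to 174 for marine stationary libraries (1.83, SE 0.20, FDR 0.000294). Cytosolic ribosomal proteins were called in 5 of 128 genes, or 3.91%, against 10.4% of all tested genes called in either direction. All 5 calls were positive, as were those of 3.78% of all genes, and the median was 0.64. An animal best hit was held by 75 of the 128.

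Genes of the tricarboxylic acid and glyoxylate cycles were also called mostly positive. Of 29 tested, 17 had a positive and 2 a negative interaction, and the median was 1.33. The called share was 65.5%, against 10.4% of all tested genes and 30.1% of those with a best hit in Viridiplantae. Mitochondrial malate dehydrogenase (TRINITY_DN1577_c0_g1) stood at 421 to 512 CPM in freshwater exponential, 121 to 129 for freshwater stationary, 181 to 185 for marine exponential and 180.1 to 217 for marine stationary libraries, and its salt effect turned from -1.31 to 0.71 (interaction 2.02, SE 0.15, FDR 3.13e-05; 1.16 with its component summed). Mitochondrial aconitase had means of 2032, 527, 953 and 764 CPM (TRINITY_DN650_c1_g1, 1.63). Glycolysis and pyruvate metabolism gave 16 positive and 6 negative calls among 65 genes, with a median of 0.30 that turns negative under the authors' scaling. Its called share, 33.8%, was near the 30.1% of genes with a best hit in Viridiplantae.

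Outside these pathways, a gene named probable glutathione peroxidase 2, of a family that reduces hydroperoxides (TRINITY_DN33_c1_g1), had the smallest FDR among the named genes. Its levels were 6563, 7241 and 6153 CPM in freshwater exponential, 30.5, 23.5 and 23.2 for freshwater stationary, 31.3, 30.6 and 30.3 for marine exponential, and 118, 122 and 128 for marine stationary libraries. Marine stationary was above freshwater stationary and marine exponential without overlap, and the interaction was 10.01 (SE 0.25, FDR 1.83e-08). A V-type proton ATPase subunit d gene, part of the pump that acidifies vacuoles (TRINITY_DN1691_c0_g1), was at 1002 to 1137 CPM in freshwater exponential and at 61.7 to 128 CPM elsewhere (3.93, SE 0.32, FDR 4.75e-05). Histone acetyltransferase of the MYST family (TRINITY_DN350_c0_g1, 1.98), the translation factor eIF2 alpha (TRINITY_DN2440_c0_g2, 1.97), phosphoglucomutase-2 (TRINITY_DN3380_c0_g1, 2.57) and zeta-carotene desaturase (TRINITY_DN9_c0_g2, 1.45) were further genes with freshwater exponential high. Phosphoglucomutase-2 (FDR with summed stems 0.0570) and zeta-carotene desaturase (0.216) did not pass in that fit, and the desaturase lost its call, at 0.44, when its component was summed. Mitochondrial HSP70 (TRINITY_DN276_c0_g1, 0.86, FDR 0.0247) lost its call when any of 8 single libraries was left out, under the authors' scaling, at 0.51, and with library totals, at 0.76 (FDR with summed stems 0.445). The gene for 60S protein L27 (TRINITY_DN2231_c0_g1, 1.18; FDR with summed stems 0.270) went to -0.12 when its component was summed.

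The named genes that were low in freshwater exponential alone included a glucanase, a cell cycle kinase and a chloroplast kinase. The gene named endoglucanase E-4, a cellulase (TRINITY_DN575_c0_g2), gave 33.1, 19.2 and 25.6 CPM in freshwater exponential, 641, 581 and 532 for freshwater stationary, 937, 926 and 902 for marine exponential, and 533, 535 and 1061 for marine stationary libraries. Freshwater exponential did not overlap the rest, and the salt effect was 5.15 in exponential and 0.28 in stationary phase (interaction -4.87, SE 0.40, FDR 5.39e-05; -3.06 with its component summed). The homolog of cell division control protein 2, a cyclin-dependent kinase (TRINITY_DN1149_c0_g1), was at 4.50 to 8.20 CPM in freshwater exponential, 111 to 149.9 for freshwater stationary, 187 to 201 for marine exponential and 166 to 349 for marine stationary libraries (-4.18, SE 0.44, FDR 0.000232), and with its component summed the value was -1.40 (FDR 0.0323). The kinase STN8, which phosphorylates photosystem II core proteins in Arabidopsis (TRINITY_DN230_c0_g1), stood at 8.45 to 10.5 CPM in freshwater exponential, 52.5 to 64.7 for freshwater stationary, 37.8 to 38.6 for marine exponential and 24.5 to 25.5 for marine stationary libraries. No groups overlapped, and salt raised it by 2.00 in exponential and lowered it in stationary phase, with -1.25 (interaction -3.24, SE 0.19, FDR 6.64e-06; -1.41 with its component summed).

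The gene for a temperature-sensitive omega-3 desaturase, which adds double bonds to membrane lipids, (TRINITY_DN3865_c0_g1) was at 104 to 130.3 CPM in freshwater exponential, 319 to 335 for freshwater stationary, 382 to 412 for marine exponential and 364 to 368 for marine stationary libraries (-1.60, SE 0.14, FDR 6.85e-05). The ribosome biogenesis protein BOP1 (TRINITY_DN1647_c0_g1, -1.72, FDR with summed stems 0.0554) and the COPII coat protein Sec24-like CEF, which buds vesicles from the endoplasmic reticulum (TRINITY_DN169_c1_g1, -2.66), had the same shape. Ascorbate peroxidase 6 (TRINITY_DN247_c0_g1, -0.78, FDR 0.0263) lost its call when any of 6 single libraries was left out (FDR with summed stems 0.217). Starch breakdown contributed 9 negative and 2 positive calls among 18 genes, with a median of -0.93. Of all tested genes, 6.62% had a negative and 3.78% a positive call, and of the 4819 with a product name 1192 were called. Alpha-amylase 3 had means of 72.3, 151, 270.3 and 229 CPM in freshwater exponential, freshwater stationary, marine exponential and marine stationary (TRINITY_DN2089_c0_g1, -1.30), and glycogen phosphorylase 1 had 75.4, 247, 889 and 606 CPM (TRINITY_DN1146_c0_g2, -2.27). Beta-amylase 3, represented by more than 1 gene, moved in both directions, with TRINITY_DN3073_c0_g3 at -1.44 and TRINITY_DN2166_c0_g1 at 0.82.

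The named genes that stood high in freshwater stationary cultures included a lipase, a cysteine synthase and a sulfolipid enzyme. The triacylglycerol lipase SDP1, which starts the breakdown of stored oil in Arabidopsis seedlings (TRINITY_DN1206_c0_g1), read 58.7, 72.4 and 66.3 CPM in freshwater exponential, 292, 744 and 646 for freshwater stationary, 156, 169 and 139 for marine exponential, and 124, 123 and 141 for marine stationary libraries. Salt raised it by 1.23 in exponential phase and gave -2.11 in stationary phase (interaction -3.35, SE 0.39, FDR 0.000457). Cysteine synthase, which adds sulfide to O-acetylserine (TRINITY_DN150_c0_g2), was at 83.0 to 110.1 CPM in freshwater exponential, 526 to 719 for freshwater stationary, 163 to 174 for marine exponential and 182 to 195 for marine stationary libraries, with salt effects of 0.82 and -1.77 (interaction -2.59, SE 0.20, FDR 3.62e-05). With its component summed, the interaction was -0.98. Its paralog TRINITY_DN298_c0_g2 had means of 231, 1223, 380.3 and 434 CPM (-2.21). UDP-sulfoquinovose synthase, which makes the head group of the sulfolipid of plastid membranes (TRINITY_DN3753_c0_g1), stood at 26.3 to 36.3 CPM, 159.6 to 214 CPM, 52.4 to 57.9 CPM and 68.4 to 77.0 CPM in the same order of groups, with no overlap (-2.08, SE 0.21, FDR 0.000171).

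Glutamate dehydrogenase A (TRINITY_DN224_c1_g1) was at 528 to 965 CPM in freshwater stationary and at 86.3 to 282 CPM in all other libraries (-2.76, SE 0.49, FDR 0.00495; FDR with summed stems 0.0828). The repressor of RNA polymerase III, MAF1 (TRINITY_DN87_c0_g1), was at 1315 to 1880.3 CPM in freshwater stationary, but 1 freshwater exponential library read 449 against 64.5 and 62.3 in the others, and its call (-4.12, SE 0.92, FDR 0.0163) was lost without marine stationary replicate 1 or 2 and with summed stems (FDR 0.201). Axonemal dynein light chain 4, named for flagellar motors (TRINITY_DN2514_c0_g1), was at 37.5 to 79.4 CPM in freshwater stationary against 3.04 to 4.42 for freshwater exponential and 9.87 to 12.7 in marine libraries (-3.82, SE 0.39, FDR 0.000189). DnaJ protein ERDJ3B, a co-chaperone of the endoplasmic reticulum (TRINITY_DN3881_c0_g1, -2.49), and catalase isozyme 2 (TRINITY_DN1464_c0_g1, -1.11, FDR 0.0439) completed the named genes of this kind, the latter losing its call when any of 10 single libraries was left out, with DESeq2 size factors and with summed stems (FDR 0.286).

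Calls among vesicle traffic and glycan genes were mostly negative. Of 95 autophagy and vesicle genes, 30 had a negative and none a positive interaction at this FDR, with a median of -0.66, and of 96 cell wall and glycan genes 25 were negative and 3 positive, with a median of -0.55. In either direction, 31.6% of the vesicle list and 29.2% of the glycan list were called. Among all tested genes with a product name, 1192 of 4819 were called, and 63.7% of all calls were negative. The vesicle genes summed to 13029 to 14624 CPM in freshwater stationary libraries, above 9068 to 11328 for freshwater exponential, 10787 to 10885 for marine exponential and 6671 to 8709 for marine stationary libraries. Freshwater stationary stood high alone in 8 of the 30, among them a gene for the COPII coat protein SEC31 with means of 112, 288, 97.6 and 72.5 CPM (TRINITY_DN290_c3_g1, -1.79). Clathrin heavy chain, the scaffold of endocytic coats, had means of 241, 398, 304 and 221 CPM without a single group apart (TRINITY_DN2687_c0_g1, -1.19). Glycosyltransferase BC10 had means of 8.6, 99.8, 1.09 and 0.720 CPM, low in both marine groups (TRINITY_DN240_c0_g2, -4.11).

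Freshwater stationary stood low in fewer named genes. Sucrose synthase 3, which splits sucrose into UDP-glucose and fructose in plants (TRINITY_DN1500_c0_g1), was at 154 to 172 CPM in freshwater exponential, 55.6 to 62.2 for freshwater stationary, 244 to 248 for marine exponential and 216 to 249 for marine stationary libraries. Salt raised it in both phases, by 0.59 and 1.96 (interaction 1.37, SE 0.13, FDR 0.000111). The beta chain of tryptophan synthase (TRINITY_DN934_c0_g1) was at 2.58, 2.85 and 7.67 CPM in freshwater stationary and at 19.9 to 66.6 CPM in the other libraries (4.07, SE 0.58, FDR 0.00140; FDR with summed stems 0.0712). The peroxisomal NAD carrier (TRINITY_DN45_c1_g4) read 1.29, 1.19 and 0 CPM there against 17.5 to 43.6 elsewhere, and chloroplast ClpB3, a chaperone that dissolves protein aggregates (TRINITY_DN1233_c0_g3), read 1.76, 3.09 and 5.83 CPM against 21.3 to 118. Their interactions of 5.03 (FDR 0.0137) and 4.04 (FDR 0.0139) became -0.37 and 0.38, both without a call, when the genes of their components were summed, and their FDR with summed stems was 0.295 and 0.298.

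Marine exponential cultures stood high in 37 genes, and the named ones were a dehydrogenase, a cofactor enzyme and a transporter. Glucose-6-phosphate dehydrogenase, the entry to the oxidative pentose phosphate path that yields NADPH (TRINITY_DN769_c0_g1), read 171, 192 and 201 CPM in freshwater exponential, 315, 474 and 330.2 for freshwater stationary, 1418, 1459.8 and 1440.3 for marine exponential, and 307, 309.7 and 431 for marine stationary libraries. The salt effect was 2.93 in exponential and -0.09 in stationary phase (interaction -3.03, SE 0.26, FDR 7.48e-05). GTP 3',8-cyclase, which starts synthesis of the molybdenum cofactor (TRINITY_DN1382_c0_g1), was at 469 to 482 CPM in marine exponential and at 45.9 to 223 CPM elsewhere (-2.66, SE 0.35, FDR 0.000947). Molybdate transporter 1, which supplies that cofactor (TRINITY_DN434_c1_g1), was at 237 to 253 CPM in marine exponential and 41.0 to 63.7 CPM elsewhere (-2.12, SE 0.22, FDR 0.000207). Nitrate reductase, a molybdenum enzyme (TRINITY_DN580_c1_g1), was highest in the same group, with 249, 353 and 514 CPM in freshwater exponential, 804, 1013 and 755 for freshwater stationary, 8021, 8547 and 7731 for marine exponential, and 2021, 2083 and 4837 for marine stationary libraries. Salt raised it in both phases, by 4.44 and 1.80 (interaction -2.65, SE 0.52, FDR 0.00852), and no single group stood apart by the rule. The difference between the phases did not pass for nitrate reductase with summed stems (FDR 0.106).

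Marine exponential stood low in 26 genes, and the 3 named ones were photosystem II and Rubisco genes, whose proteins are encoded by the chloroplast genome in green plants. Photosystem II core protein CP47 (TRINITY_DN419_c0_g2) read 1.36, 2.16 and 3.48 CPM in marine exponential against 10.4 to 48.5 CPM in the other 9 libraries (4.81, SE 0.74, FDR 0.00215), and its value was 2.25 when its component was summed. Photosystem II protein D1 (TRINITY_DN51627_c0_g1) was at 5.27 to 7.49 CPM there and at 24.7 to 103 elsewhere (2.89, SE 0.67, FDR 0.0192), a call that was lost without freshwater stationary replicate 1 or 3 or marine exponential replicate 1 or 3 and with summed stems (FDR 0.134). The Rubisco large chain (TRINITY_DN1417_c0_g4) was at 0.890 to 1.58 CPM against 7.57 to 48.0 CPM (3.71, SE 0.45, FDR 0.000587), and its value became -0.10 when its component was summed. Libraries were made from poly(A) RNA, which most chloroplast transcripts lack, and the part of this selection in the result was not tested.

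Marine stationary cultures stood low in 105 genes. Formate acetyltransferase, the pyruvate formate-lyase of algal fermentation (TRINITY_DN1348_c0_g1), read 3259, 5349 and 4963 CPM in freshwater exponential, 4386, 3783 and 4858 for freshwater stationary, 1004, 1028 and 996 for marine exponential, and 119, 119 and 323 for marine stationary libraries. Salt lowered it in both phases, with -2.16 and -4.54 (interaction -2.37, SE 0.52, FDR 0.0158). A probable beta-D-xylosidase (TRINITY_DN488_c1_g1) was at 31.1, 31.8 and 66.1 CPM in marine stationary and 82.5 to 257 CPM elsewhere (-2.41, SE 0.39, FDR 0.00312), and serine protease 30 (TRINITY_DN5903_c0_g1) at 1.94 to 4.69 against 12.6 to 73.0 CPM (-2.93, SE 0.61, FDR 0.0119). None of these 3 calls held with summed stems, where the FDR was 0.148 for formate acetyltransferase, 0.0565 for the xylosidase and 0.152 for the protease, and the xylosidase was at -1.48 with its component summed. All 3 negative calls of the carotenoid and isoprenoid list had this shape. Their means in the order used above were 614, 351, 85.1 and 11.9 CPM for 15-cis-zeta-carotene isomerase (TRINITY_DN2412_c0_g1, -2.03), 723, 952, 789.9 and 322 CPM for zeaxanthin epoxidase of the xanthophyll cycle (TRINITY_DN1658_c0_g1, -1.69) and 375, 463, 307 and 186 CPM for beta-carotene isomerase D27 (TRINITY_DN1190_c0_g1, -1.03).

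Marine stationary stood high in 18 genes, of which 2 met the naming rule. The gene for a bifunctional adenosine 5'-phosphosulfate phosphorylase-like enzyme (TRINITY_DN4099_c0_g1) was at 26.9 to 32.6 CPM there and at 10.1 to 20.8 CPM elsewhere (1.83, SE 0.32, FDR 0.00461). A pirin-like gene (TRINITY_DN499_c0_g1) was at 79.6 to 96.3 against 44.2 to 60.7 CPM (0.68, SE 0.14, FDR 0.0112). Neither call held with summed stems, with an FDR of 0.216 and 0.465, or without a filter on low counts, and the pirin-like gene also lost its call with library totals, at 0.59, and under the authors' scaling, at 0.33.

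Some named genes moved in both phases or changed sign without a single group apart. Chloroplast 4-alpha-glucanotransferase DPE1, which processes maltotriose from starch (TRINITY_DN6732_c0_g2), was at 23.6 to 27.6 CPM in freshwater exponential, 58.6 to 76.4 for freshwater stationary, 41.6 to 43.6 for marine exponential and 11.5 to 15.7 for marine stationary libraries. All groups were separate, and the salt effect went from 0.76 to -2.38 (interaction -3.14, SE 0.22, FDR 2.17e-05). The small subunit of glucose-1-phosphate adenylyltransferase, the first step of starch synthesis (TRINITY_DN86_c0_g1), turned from 0.62 to -0.85 (-1.47, FDR 0.00184). Methylenetetrahydrofolate reductase of folate metabolism (TRINITY_DN5502_c0_g1, -3.46), a gene named for disease resistance protein TAO1 (TRINITY_DN2510_c0_g2, -4.47, FDR with summed stems 0.0546) and organellar leucine-tRNA ligase (TRINITY_DN1140_c0_g1, 2.02) also turned sign.

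Mitochondrial alternative oxidase, which bypasses the proton-pumping part of respiration (TRINITY_DN728_c0_g1), was lowered by salt in both phases, with levels of 645 to 733 CPM in freshwater exponential, 1223 to 1448 for freshwater stationary, 468 to 471 for marine exponential and 231 to 278 for marine stationary libraries (interaction -1.87, SE 0.17, FDR 8.43e-05). The glyoxylate cycle enzymes were also lowered in both phases, but less in stationary phase, a difference that did not pass with summed stems (FDR 0.198 for isocitrate lyase and 0.309 for malate synthase). Isocitrate lyase (TRINITY_DN176_c1_g1) was at 1389 to 1422, 625 to 671, at most 214, and 179 to 211 CPM, with salt effects of -2.75 and -1.72 (interaction 1.03, SE 0.14, FDR 0.00112; 0.68 under the authors' scaling). Malate synthase (TRINITY_DN1209_c0_g1) was at 304 to 331, 94.8 to 127, 9.39 to 11.7 and 6.79 to 13.8 CPM, with -4.94 and -3.42 (1.52, SE 0.32, FDR 0.0119). Diacylglycerol O-acyltransferase 1C, which forms triacylglycerol (TRINITY_DN290_c3_g2, -1.04), splicing factor U2AF (TRINITY_DN1319_c0_g1, -1.79) and 26S proteasome subunit 4 (TRINITY_DN360_c2_g1, -0.90) were the remaining named genes with a call. The acyltransferase (FDR with summed stems 0.196) and the proteasome subunit (0.1003) did not pass in that fit, and the acyltransferase was at -1.73 with its component summed.

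A panel of 25 products from pathways often discussed for salt and storage metabolism was also read, called or not, and 2 of them had no tested gene. In 12 the interaction did not pass. For the mitochondrial glycerol-3-phosphate dehydrogenase SDP6 (TRINITY_DN190_c0_g1) it was -0.03 (95% confidence interval -0.33 to 0.27), with salt effects of 0.64 and 0.61. Citrate synthase (TRINITY_DN865_c0_g1) was lowered by salt in both phases, with -3.45 and -3.31, and an interaction of 0.14 (-0.42 to 0.70). Cytosolic glutamine synthetase (TRINITY_DN1744_c0_g1) was raised in both, by 1.91 and 2.09, with 0.18 (-0.31 to 0.67), and granule-bound starch synthase (TRINITY_DN2954_c0_g1) by 2.82 and 2.30, with -0.52 (-1.01 to -0.04). Intervals were wider for carbonic anhydrase 2 (TRINITY_DN2396_c0_g1), at -0.04 (-1.03 to 0.96), for the plasma membrane proton pump (TRINITY_DN298_c2_g1), at 0.06 (-0.73 to 0.85), and for the replication clamp PCNA (TRINITY_DN4760_c0_g4), at -1.10 (-3.19 to 1.00), so the interaction of these genes was not closely bounded. Sodium/hydrogen exchanger 8 (TRINITY_DN832_c0_g1) had -0.96 (-1.79 to -0.13), glutamate 5-kinase of proline synthesis (TRINITY_DN3484_c0_g1) 0.70 (-0.02 to 1.41), ATP-dependent phosphoenolpyruvate carboxykinase (TRINITY_DN616_c0_g1) -0.39 (-0.91 to 0.13) and superoxide dismutase (TRINITY_DN1132_c0_g1) 0.18 (-0.23 to 0.58). The dismutase passed, at 1.13 (FDR 0.00534), when its component was summed, and the exchanger, at -1.31, and granule-bound starch synthase, at -0.88, passed under the authors' scaling. Ammonium transporter 1 member 3 (TRINITY_DN456_c1_g1) read 1426, 1378 and 239 CPM in marine stationary against 214 to 224 for marine exponential and 12.8 to 25.1 in freshwater libraries, and its interaction of 1.56 (0.03 to 3.09) passed without marine stationary replicate 3, at 2.09, and in DESeq2's own test, at 1.66.

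**Figure D4:**
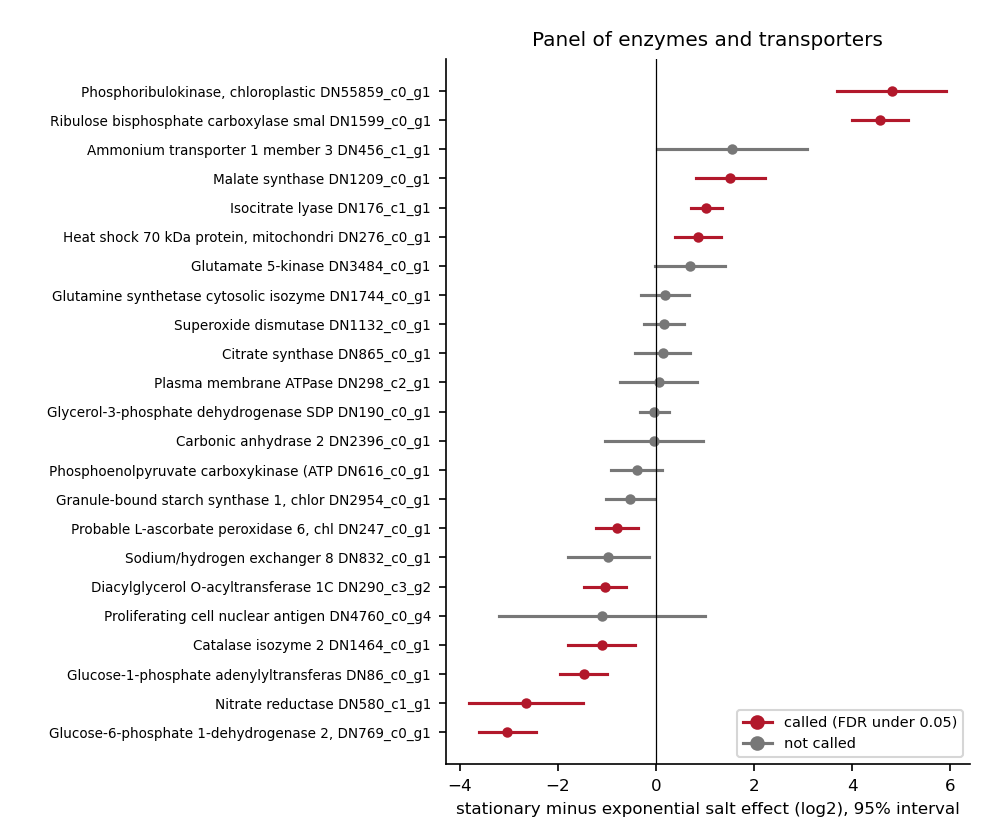
Interaction on the log2 scale (x axis) with its 95% confidence interval for each panel product that had a tested gene (y axis), with called genes marked. Intervals of glycerol-3-phosphate dehydrogenase SDP6 and isocitrate lyase are narrow and that of PCNA is the widest among those not called.

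Among the other gene lists, ion transport had 14 negative and 1 positive call among 47 genes, with a median of -0.80, and the flagella, dynein and tubulin list had 11 negative and 1 positive among 45, with -0.58. A gene named as a sodium/potassium-transporting ATPase subunit, an ion pump best known in animals, had means of 52.0, 238, 1091 and 892 CPM (TRINITY_DN155_c0_g1, -2.48). Proteasome genes had 8 negative calls of 39 (median -0.46), glycerolipid assembly 5 negative and 1 positive of 21 (-0.36), DNA replication and cell cycle 12 and 5 of 111 (-0.30), ribosome biogenesis 6 and 1 of 56 (-0.24), compatible solutes 5 and 2 of 25 (-0.24), histones and chromatin 12 and 3 of 66 (-0.11) and protein kinases 41 and 15 of 232 (-0.39). Counts were mixed for the respiratory chain, with 10 positive and 7 negative of 57 (0.88), heat shock proteins and chaperones, with 7 and 9 of 80 (0.44), antioxidant genes, with 9 and 7 of 55 (0.34), and splicing, with 7 and 7 of 66 (-0.05). Small numbers of calls came from fatty acid synthesis, with 4 positive and 1 negative of 13 (0.63), fatty acid breakdown, with 6 and 4 of 33 (-0.05), nitrogen assimilation, with 2 and 4 of 19 (0.26), phosphate and sulfur uptake, with 1 and 5 of 29 (0.11), starch synthesis, with 3 and 1 of 15 (0.07), carotenoid synthesis, with 2 and 3 of 19 (0.35), translation factors, with 4 and 7 of 73 (0.19), aminoacyl-tRNA ligases, with 6 and 5 of 45 (0.17), and the oxidative pentose phosphate path, with 2 negative of 5 (0.13). Medians changed sign under DESeq2 size factors for fatty acid breakdown, histones and splicing, and under the authors' scaling for carotenoids, nitrogen, phosphate and sulfur, starch synthesis, glycolysis, the pentose phosphate path, translation factors, tRNA ligases and antioxidants, while none changed sign with library totals. No list was tested as a set, and members of a list can be copies of 1 assembled sequence. The share called in these other lists ran from 12.5% for ribosome biogenesis to 40% for the 5 pentose phosphate genes. Of all tested genes 10.4% were called, and of the 4819 with a product name 1192 were.

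**Figure D5:**
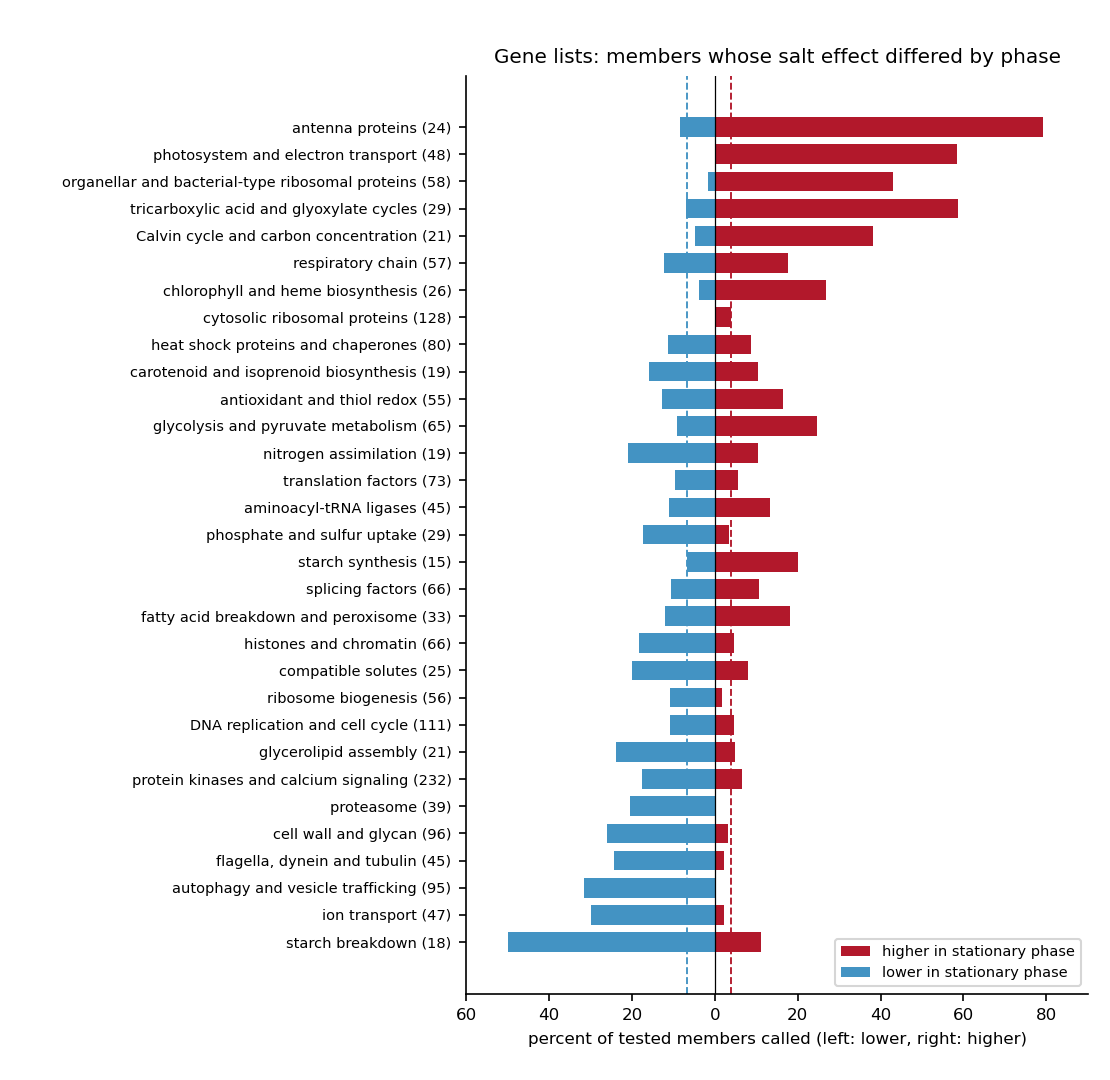
Share of the tested members of each gene list with 15 or more tested genes (y axis, number tested in brackets) with a called interaction, in percent (x axis), positive calls to the right and negative calls to the left. Antenna genes (19 of 24) extend farthest to the right and starch breakdown genes (9 of 18) farthest to the left, and dashed lines mark the 3.78% and 6.62% of all genes. Only 20.6% of all tested genes carry a product name, as every list member does, and 1192 of these 4819 genes were called.

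The share of genes called, 10.4% in all, varied with the annotation. Of the called genes, 1192 (49.1%) carried a product name, against 4819 of all tested genes (20.6%). Among genes with a best hit in Viridiplantae, 797 of 2649 were called (30.1%), against 98 of 378 with a bacterial hit (25.9%), 34 of 180 with a fungal hit (18.9%), 190 of 1333 with an animal hit (14.3%), 45 of 209 with a hit in other organisms (21.5%), 29 of 73 with a hit that names no organism (39.7%) and 1235 of 18529 without a hit (6.67%).

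The authors' deposited table holds its own test of the interaction, made with another normalisation. At an adjusted p under 0.05, the authors' deposited table lists 1106 genes with a positive and 3280 with a negative interaction, 4324 of them among the genes tested here. Of those, 2197 were also called here, all in the same direction, which is 90.5% of the calls made here and 50.8% of the 4324 in the authors' deposited table.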

How the data were processed

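RNA was poly(A)-selected and made into TruSeq libraries without strand information, per the labels' protocols, so overlapping genes on opposite strands cannot be told apart. The deposited matrix holds expected counts, estimated read pairs per assembled gene that the authors obtained with RSEM 1.3.2 after Bowtie alignment, per the submitters' processing notes, to a Trinity assembly, per the series design. The authors' deposited comparison table lists group means as a signal after SVCD normalisation, together with log2 fold changes and adjusted p-values from DESeq2 1.20.0, and the deposited annotation table gives product names, E-values and a mean similarity in percent, which was not used. An assembly has no genome coordinates, so positions are not given, and names are best hits.

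Expected counts were rounded to whole numbers, scaled with TMM factors (0.752 in the lowest to 1.35 in the highest library) and fitted with 1 mean per group in 1 model of the 12 libraries (edgeR 4.0.16, R 4.3.3). P-values of its quasi-likelihood test were adjusted over 23351 genes with the Benjamini-Hochberg procedure, and genes were called at an FDR under 0.05. The SE of an interaction was calculated back from the test, as its absolute value over the square root of the F statistic. The 95% confidence intervals were built from this SE. A salt effect in 1 phase compares 3 against 3 libraries, and the smallest two-sided exact permutation p of such groups is 0.1. The interaction uses all 4 groups, and no permutation p was calculated for it. Group levels used log2 CPM with a prior count of 2. Gene lists were patterns over product names with an E-value of at most 1e-10. The members and lists were chosen with earlier results of these data known. Named genes were, per class, up to 3 with the largest interaction among those called, at average log2 CPM 4 or higher, without overlap with the other 9 libraries, the 3 highest and lowest among those that turned sign, the called member with the smallest p of each list with 5 or more members, and the most abundant gene of each of 25 panel products. Other list members given by group means were chosen after their values were seen. The code was tested on simulated counts, with 50 genes each changed by 2, -2, 4 or -4 log2 units in marine stationary alone. The changed genes averaged 50 or more expected counts per library, and each gene had the same simulated spread in all groups, unlike the libraries here. The interaction test recovered 40%, 36%, 80% and 68% of them in that order, so such changes can go uncalled. Recovery of changes in genes with fewer counts was not simulated. Alternatives were other scalings and filters, DESeq2 1.42.0, libraries left out, libraries of a shared code stem summed, assembly components summed and a replicate block. Tables and figures used Python 3.11.15, pandas 2.3.3 and matplotlib 3.10.9.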

Additional observations from a re-analysis of the deposited data

Results flagged for a closer look

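The salt effect differed between the phases by a test of the difference itself in 882 genes with a positive and 1546 with a negative interaction, and the named genes among them are collected here with their interaction on the log2 scale, in edgeR's quasi-likelihood test. With freshwater exponential high, the antenna genes had values of 11.33 (LHCII type I, TRINITY_DN546_c0_g2), 10.20 (protein 215), 9.39 (protein 3), 5.93 (CP29) and 5.43 (photosystem I antenna), and glutathione peroxidase 2 had 10.01. Phosphoribulokinase had 4.81, the Rubisco small chain 4.57, the V-type ATPase subunit d 3.93, aldolase 1 3.34, glutamyl-tRNA reductase 2.71, phosphoglucomutase-2 2.57, malate dehydrogenase 2.02, MYST acetyltransferase 1.98, eIF2 alpha 1.97, 30S protein S13 1.83, zeta-carotene desaturase 1.45, 60S protein L27 1.18 and mitochondrial HSP70 0.86. With freshwater exponential low, the values were -4.87 (endoglucanase E-4), -4.18 (cell division control protein 2), -3.24 (STN8), -2.66 (Sec24-like CEF), -1.72 (BOP1), -1.60 (omega-3 desaturase) and -0.78 (ascorbate peroxidase 6).

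Freshwater stationary stood high with -11.94 and -10.31 in the antenna copies TRINITY_DN2252_c0_g1 and TRINITY_DN546_c0_g9, -4.12 in MAF1, -3.82 in dynein light chain 4, -3.35 in the lipase SDP1, -2.76 in glutamate dehydrogenase A, -2.59 in cysteine synthase, -2.49 in ERDJ3B, -2.08 in UDP-sulfoquinovose synthase and -1.11 in catalase. It stood low with 5.03 in the peroxisomal NAD carrier, 4.07 in tryptophan synthase, 4.04 in ClpB3 and 1.37 in sucrose synthase 3. Marine exponential stood high with -3.03 in glucose-6-phosphate dehydrogenase, -2.66 in GTP 3',8-cyclase and -2.12 in the molybdate transporter, and low with 4.81 in CP47, 3.71 in the Rubisco large chain and 2.89 in D1. Marine stationary stood high with 1.83 in the phosphosulfate enzyme and 0.68 in the pirin-like gene, and low with -2.93 in serine protease 30, -2.41 in the xylosidase and -2.37 in formate acetyltransferase. Without a single group apart, the values were 9.86 (type 2 antenna gene), -4.47 (TAO1), -3.46 (methylenetetrahydrofolate reductase), -3.14 (DPE1), -2.65 (nitrate reductase), 2.02 (leucine-tRNA ligase), -1.87 (alternative oxidase), -1.79 (U2AF), 1.52 (malate synthase), -1.47 (glucose-1-phosphate adenylyltransferase), -1.04 (diacylglycerol acyltransferase), 1.03 (isocitrate lyase) and -0.90 (proteasome subunit 4).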

How the results depend on the processing

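The main counts were 882 positive and 1546 negative calls. DESeq2's own test gave 2392 and 2552, no filter on low counts 433 and 969, and summed code stems 122 and 323. Scaling matched to the authors' table, chosen after seeing the data, gave 2498 negative calls. In the classes freshwater exponential high and low, freshwater stationary high and low, marine exponential high and low, marine stationary high and low, and none, DESeq2's test moved those to 769, 871, unchanged within 1.5 times, 500, 73, 92, 210, 162 and 1806. Without a filter they were 268, 350, 193, 84, 24, 8, 7, unchanged within 1.5 times, and 398, and with stems summed 90, 110, 70, 15, 7, 3, 2, 26 and 122. Genes that turned from lower to higher and from higher to lower numbered 400 and 309 in DESeq2's test, 48 and 93 without a filter, 27 and 27 with stems summed, and 51 and 305 under the authors' scaling. That scaling also gave 563 genes with freshwater stationary high, 106 low, 63 with marine exponential high, 9 with marine stationary high and 282 low. A class rule that also asked for a gap of at least 1 on the log2 scale gave 174 and 119 with freshwater stationary high and low, 14 with marine exponential high, 9 and 60 with marine stationary high and low, and 1290 with none. Library totals gave 214 and 897 with freshwater exponential high and low and 202 with freshwater stationary high, and DESeq2 size factors 68 with marine stationary low. The correlation of same-numbered deviations from group means was -0.121 to 0.165 and passed 0.1 in 3 of 18 pairs, against 4 of 36 with other numbers. With means of 3 libraries, this cannot decide whether the replicate numbers pair the samples. A replicate block gave 688 positive and 1323 negative calls and 14 genes with marine exponential low. The cause of these shifts was not tested. Leaving out 1 library at a time gave 621 to 1327 positive and 1003 to 1987 negative calls. The classes in the order above ranged over 353 to 537, 361 to 658, 201 to 328, 117 to 305, 22 to 63, 15 to 32, 10 to 48, 61 to 285 and 456 to 1209, and the genes that turned over 66 to 186 and 90 to 273. With components summed, named genes reversed to 4.52 (TRINITY_DN2252_c0_g1), 3.36 (TRINITY_DN546_c0_g9), -0.10 (TRINITY_DN1417_c0_g4), -0.12 (TRINITY_DN2231_c0_g1) and -0.37 (TRINITY_DN45_c1_g4). In settings with all libraries, 863 of 911 values of named genes kept their direction and side of the threshold. Genes near 15 counts per medium limit what can be called.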

Other observations

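Some abundant or strongly differing members of the gene lists lie outside the named genes and were chosen after their values were seen. A gene named for the kinase TOUSLED, which acts in chromatin assembly in Arabidopsis, had means of 30.1, 140.2, 10265 and 3925 CPM in freshwater exponential, freshwater stationary, marine exponential and marine stationary libraries, with an interaction of -3.61 (TRINITY_DN425_c0_g1). Alcohol dehydrogenase, which makes ethanol in fermentation, had 149.7, 3.42, 0.541 and 0.332 CPM (TRINITY_DN34430_c0_g1, 4.76). Cytosolic triosephosphate isomerase of glycolysis had 269, 1140.1, 484 and 156 CPM (TRINITY_DN358_c0_g2, -3.72). The phosphate-signalling protein SPX had 505, 1238, 187 and 121 CPM (TRINITY_DN2825_c0_g1, -1.92), and assimilatory sulfite reductase 468, 637, 268 and 168 CPM (TRINITY_DN1665_c0_g1, -1.12). NADP-specific glutamate dehydrogenase, with 227, 26.0, 3.95 and 5.14 CPM (TRINITY_DN2745_c0_g4, 3.52), had the opposite sign to glutamate dehydrogenase A.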
